A study of Mus musculus with 18 samples.

Results

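The genes described here carry or restrain the signal of the T cell receptor, and their transcripts were followed in antigen-activated mouse CD8+ T cells that were left in plain media or given a single common gamma chain (γc) cytokine. They were listed by name as parts of the receptor complex, its kinases and adaptors, its inhibitors and the transcription factors it induces early. No measured value entered that rule, but the list was chosen with earlier results of these data known. Of 49 listed genes, 47 were measured, out of 18194 genes with a probe set of their own on the array. The other 2 listed genes, Lck and Nfkb1, had no probe set under their symbol alone in the annotation used and were not analysed here.

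CD8+ T cells came from the spleens of male OT-I Thy1.1 TCR Tg mice, a strain in which a receptor transgene gives the T cells a single specificity for a peptide of ovalbumin, and whose age the sources used here do not give. The naïve cells were primed for 48 h with peptide on irradiated C57BL/6 splenocytes, enriched for viable cells over a Ficoll gradient and then cultured for 24 h in the media control or with IL-2, IL-15, IL-21, IL-7 or IL-4, each recombinant, murine and at 100 ng/ml. Each of the 6 groups had 3 biological replicates, 1 Affymetrix Mouse 430 2.0 array each, and all 6 shared the transgene and the priming. The T cells were purified before priming, the priming culture held whole splenocytes, and the primed T cells were purified again, for which the methods name the Ficoll step, before the cytokines were added. All groups were taken at a single time.

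A T cell reads antigen through a receptor that has no enzyme of its own. The CD3 and zeta chains carry tyrosine motifs that SRC family kinases phosphorylate when the receptor and the CD8 coreceptor bind peptide on a class I molecule, and ZAP70 then docks there and phosphorylates the scaffold proteins LAT and SLP-76. From that scaffold, phospholipase C gamma makes calcium and diacylglycerol signals that reach NFAT, RAS and NF-kappaB, while phosphatases, ubiquitin ligases and diacylglycerol kinases hold the pathway in check. The γc cytokines signal through JAK kinases and STAT factors and not through this receptor, and support T cell growth, survival and differentiation.

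Values are log2 expression after quantile normalization of the 18 arrays, and a difference between groups is a log2 difference of means with its standard error (SE) and a p adjusted over all 18194 genes by the Benjamini-Hochberg method in limma, with 0.05 as the threshold. The RNeasy kit was used for replicates 1 and 2, and TRIzol followed by Direct-zol for the other (the TRIzol replicate, replicate 3). Arrays with the same replicate number deviated together, and a fit with that number as a block is given as the p with the block, for single differences or as a range. Replicate 3 of media control, IL-15 and IL-2 lay on a lower scale as deposited (medians 4.47 to 4.52, against 5.76 to 5.84 in the others), and the actin 3′ minus 5′ signal of these 3 arrays was 0.589 to 0.684, against 0.188 to 0.395. Within replicate 3, media control thus differed from IL-4, IL-7 and IL-21 in both measures, and the block does not remove this. The label of CD8 T cells was borne out by the markers Cd8a, Cd8b1, Cd3e, Cd3g and Thy1, which were all far above the background level of 6.86, while 3 of 4 CD4 T cell markers, all 4 red cell markers, at least 8 of 9 B cell markers and at least 2 of 3 NK cell markers were under it in every group. Of 9 dendritic cell markers, 3 (H2-Aa, H2-Ab1 and Cd74) had means above background in all groups. The log2 of the summed signal of all 9 was 10.97 to 11.83 in media control and 9.93 to 10.51 with IL-2. It was 10.01 to 10.55 with IL-4, 9.91 to 10.78 with IL-7, 10.10 to 11.10 with IL-15 and 9.79 to 11.08 with IL-21. With IL-2, Cd74 and H2-Aa differed from media control by -2.31 and -2.25, and H2-Ab1 by 0.21 (adjusted p = 0.934). The sum of the 10 myeloid markers, 7 of them under background in media control, was 9.64 to 12.13 in media control and 8.82 to 9.15 with IL-2. It was 8.87 to 9.56 with IL-4, 8.75 to 9.66 with IL-7, 8.97 to 10.97 with IL-15 and 8.93 to 10.34 with IL-21. The CD8 T cell markers, 4 of which are members, summed to 14.70 to 15.02 in media control and 14.04 to 14.32 with IL-2. They summed to 14.53 to 14.86 with IL-4, 14.50 to 14.79 with IL-7, 14.66 to 14.92 with IL-15 and 14.60 to 14.92 with IL-21. The remaining marker of that list, Thy1, had means of 12.87 in media control and 12.81 with IL-2 (difference -0.06, adjusted p = 0.938). The part of these other cells in the results below was not tested, and fewer cells of a type and less RNA per cell cannot be told apart in such samples.

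Among the members, more fell than rose with IL-2, IL-4, IL-21 and IL-7, and the count was highest with IL-2, while none passed with IL-15. With IL-2, 22 of the 47 members fell and 1 rose (31 and 3 with the block), while 8% of all genes tested fell and 7.83% rose (15.1% and 15.5% of all genes with the block). With IL-4, 15 members fell and 1 rose (24 and 2 with the block), beside 5.1% and 3.98% of all genes (12.9% and 12.9% with the block). With IL-21, 10 fell and 2 rose (24 and 4 with the block), beside 3.29% and 3.39% (10.5% and 10.6%). With IL-7, 2 fell (16 fell and 1 rose with the block), beside 0.747% that fell and 0.934% that rose (8.01% and 8.34%). With IL-15 neither any member nor any other gene passed, so that the share called was 0 in both directions, by limma with or without the block, and at an unadjusted p under 0.05 there were 390 genes (2.14%), 4 of them members. Of these counts, the fall with IL-21 became 6 without IL-21 array 1 (arrays are numbered by replicate), the rise with IL-4 became 0 without control array 1 or 3 or IL-4 array 1 or 2, and the fall with IL-7 became 1 without control array 2 and 0 without control array 3 or IL-7 array 1 or 2.

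The median change of the members was -0.14 with IL-15, -0.26 with IL-7, -0.37 with IL-21, -0.47 with IL-4 and -0.62 with IL-2, where the median of all genes was between -0.02 and 0.01. The differences from media control pointed down in 41 of the 47 members with IL-15, 39 with IL-7, 39 with IL-21, 41 with IL-4 and 40 with IL-2. Of all genes, 53.3% pointed down with IL-15, 52.8% with IL-7, 50.9% with IL-21, 49.4% with IL-4 and 47.5% with IL-2. On the deposited scale, where the arrays on a lower scale move the median of all genes to 0.43 for IL-4 and IL-21 and 0.41 for IL-7, the members' median turned to 0.21 with IL-7, 0.11 with IL-21 and 0.01 with IL-4, which is -0.20, -0.31 and -0.42 relative to all genes. The sign there was the other one in 26 members with IL-7, 23 with IL-21, 19 with IL-4, 3 with IL-2 and 2 with IL-15, and of these Bcl10 with IL-21 was a difference that had passed. All 5 comparisons share the media control arrays, so they do not count as separate evidence of one direction.

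**Figure D1:**
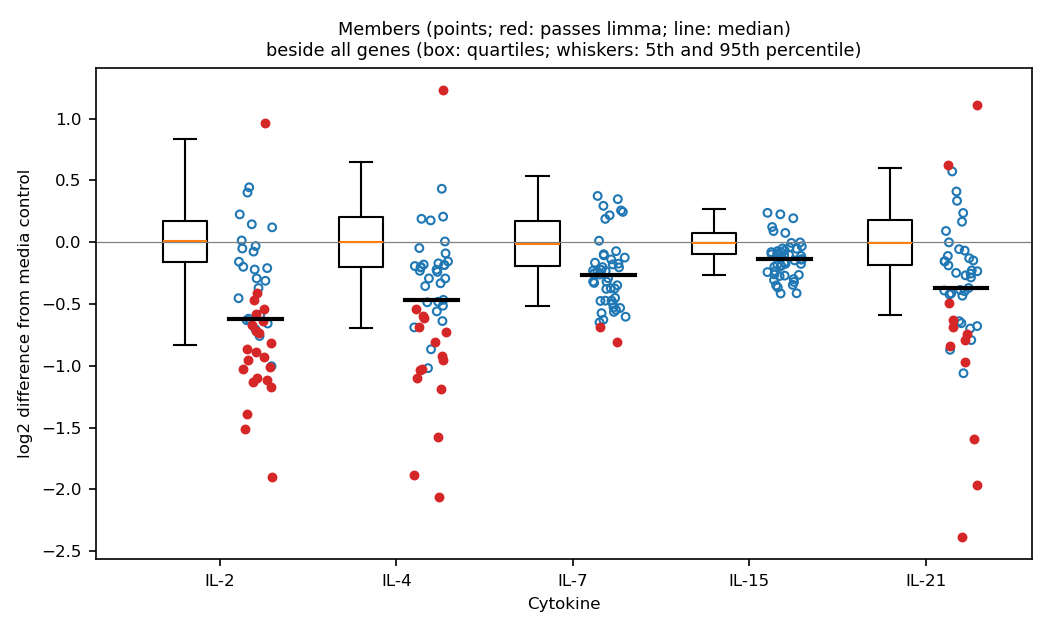
Log2 difference from media control for each of the 47 members (points, red where limma's adjusted p passed, with a line at their median) beside all 18194 genes (box for the quartiles, whiskers for the 5th and 95th percentile), by cytokine, after quantile normalization. The members' medians lie below the all-gene median for all 5 cytokines, from -0.14 with IL-15 to -0.62 with IL-2, and on the deposited scale those of IL-4, IL-7 and IL-21 are above 0 together with the median of all genes.

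Over the 6 groups, the moderated F test called 21 of the 47 members (13.9% of all genes passed) and 42 with the block (35.7% of all genes). Counting single cytokines, 30 members differed from media control with at least 1 of them, as did 20% of all genes. With the block 42.1% of all genes did so, and a further 13 members, namely Cd8a, Csk, Grap2, Vav1, Themis, Icos, Ptprc, Ptpn22, Prkcq, Nfatc3, Egr1, Egr2 and Nr4a2. The 4 members not called against media control in either fit were the phosphatase Ptpn6, the STS-1 phosphatase Ubash3b, the ubiquitin ligase Cbl and the calcium channel subunit Orai1. Of these, Ptpn6 and Orai1 passed the F test with the block (adjusted p = 0.0116 and 0.038). No member had a mean over the 18 arrays under the background level, and Egr3 with IL-21 was the single group mean under it. In all, 52 differences from media control passed with the block alone, with sizes of 0.22 to 1.06 and adjusted p with the block of 8.9e-06 to 0.0434. Among them were falls of Cd247 with IL-4 and IL-7, Cd8b1, Cd28, Ptpn22 and Nfkbia with IL-7 and IL-21, Lcp2 with IL-21, Stim1 with IL-4, IL-7 and IL-21 and Nfatc3 with IL-2, and a rise of Nfatc2 with IL-7, and the rest are given beside their genes.

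**Figure D2:**
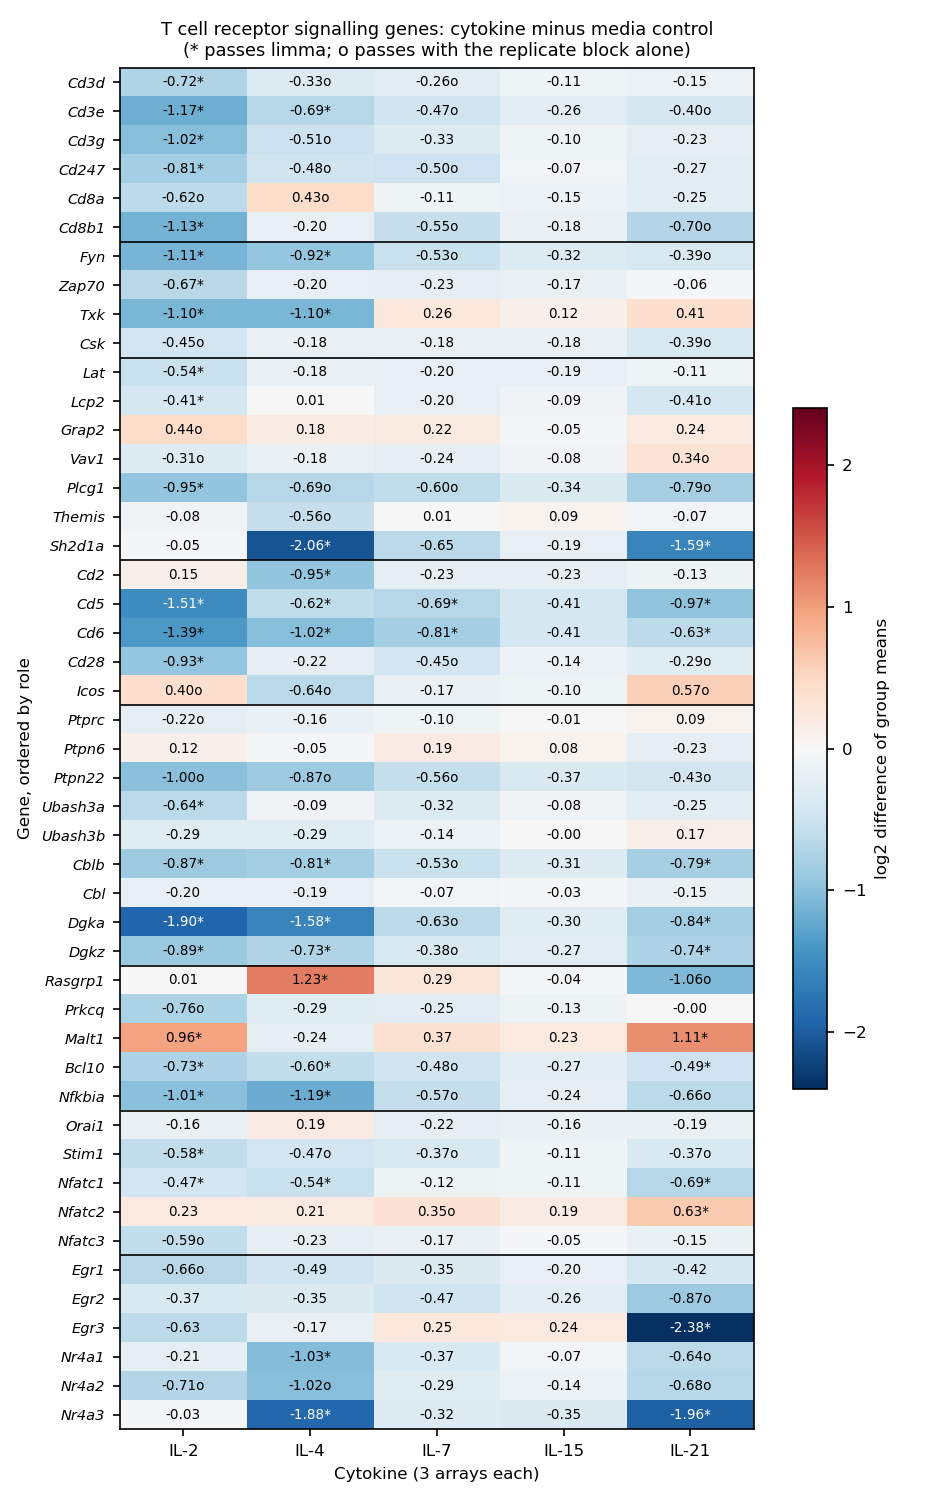
Log2 difference of group means, cytokine minus media control, for the 47 members (rows, ordered by role) and 5 cytokines (columns), 3 arrays a group, after quantile normalization. A star marks a difference that passed in limma and a circle one that passed with the replicate block alone. The IL-2 column holds 22 falls and 1 rise with stars, and the IL-15 column holds none.

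Most chains of the receptor itself fell with IL-2. Of the 6 genes for CD3, zeta and CD8 chains, 5 fell with IL-2 (6 with the block), 1 fell with IL-4 (4 fell and 1 rose with the block), and none passed with IL-7 or IL-21 (4 and 2 fell with the block). The 3 CD3 genes lie side by side on chromosome 9, the starts of Cd3d and Cd3g 1355 bases apart and that of Cd3e 27825 bases beyond Cd3d. Since they moved together, the 250 bases before each start are shown, from RefSeq on build GRCm38.p6, 5′ to 3′ on the gene's strand, with capitals for the STAT-type motif TTCNNNGAA, which reads the same on both strands.
Cd3d (chr9:44981536-44981785, plus strand): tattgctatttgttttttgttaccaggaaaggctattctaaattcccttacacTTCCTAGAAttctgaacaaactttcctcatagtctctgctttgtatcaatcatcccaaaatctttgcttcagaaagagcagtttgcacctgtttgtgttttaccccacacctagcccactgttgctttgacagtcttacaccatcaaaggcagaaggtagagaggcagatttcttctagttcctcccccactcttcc
Cd3g (chr9:44980432-44980681, minus strand): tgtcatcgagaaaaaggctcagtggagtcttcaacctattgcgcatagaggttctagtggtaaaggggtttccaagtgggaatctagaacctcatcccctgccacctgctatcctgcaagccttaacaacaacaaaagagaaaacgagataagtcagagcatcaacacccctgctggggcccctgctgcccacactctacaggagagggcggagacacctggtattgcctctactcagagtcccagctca
Cd3e (chr9:45009612-45009861, minus strand): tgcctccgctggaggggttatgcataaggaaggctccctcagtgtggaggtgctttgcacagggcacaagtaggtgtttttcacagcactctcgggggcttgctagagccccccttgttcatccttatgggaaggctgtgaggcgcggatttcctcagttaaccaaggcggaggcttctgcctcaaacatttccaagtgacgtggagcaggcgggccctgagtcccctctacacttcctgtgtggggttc
The motif is in the Cd3d window and not in these letters of the Cd3g and Cd3e windows. It is in 7.02% of the 32851 promoter windows of this length, where a gene can have several. By gene, 8.13% of all genes in that table and 5 of its 37 members (13.5%), Cd3d, Orai1, Ptpn22, Rasgrp1 and Ubash3b, have a window with it, and a match describes the letters alone.

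Cd3d, the delta chain, was at 13.80, 13.91 and 14.01 in media control, 12.98, 13.23 and 13.36 with IL-2, 13.74, 13.84 and 13.82 with IL-15, 13.44, 13.58 and 13.70 with IL-4, 13.66, 13.83 and 13.79 with IL-21 and 13.53, 13.70 and 13.71 with IL-7 (replicates 1, 2 and 3, as in all such lists here). The IL-2 arrays were the lowest of all 18 and did not overlap any other group, and the change from media control was -0.72 (SE 0.12, adjusted p = 6.3e-04). With the block alone it also passed with IL-4, at -0.33 (SE 0.12, adjusted p = 0.102, 0.00462 with the block), and with IL-7, at -0.26 (SE 0.12, adjusted p = 0.332, 0.03 with the block). Cd3g, the gamma chain, was at 12.92, 13.14 and 13.29 in media control, 11.68, 12.09 and 12.50 with IL-2, 12.91, 13.06 and 13.08 with IL-15, 12.38, 12.62 and 12.80 with IL-4, 12.75, 13.02 and 12.89 with IL-21 and 12.60, 12.85 and 12.90 with IL-7. It changed by -1.02 (SE 0.18, adjusted p = 0.001) with IL-2, and its 3 IL-2 arrays lay below all 3 arrays of media control, although IL-2 replicate 3 was above IL-4 replicate 1. The difference with IL-4 was -0.51 (SE 0.18, adjusted p = 0.095, 0.00298 with the block). Cd3e, the epsilon chain, was at 12.03, 12.17 and 12.25 in media control, 10.89, 11.17 and 10.88 with IL-2, 11.90, 12.17 and 11.60 with IL-15, 11.49, 11.69 and 11.21 with IL-4, 11.86, 12.08 and 11.32 with IL-21 and 11.59, 11.87 and 11.57 with IL-7. The fall with IL-2 was -1.17 (SE 0.19, adjusted p = 6.6e-04), and Cd3e was the chain that also fell with IL-4, with a difference of -0.69 (SE 0.19, adjusted p = 0.0363). The IL-4 call did not pass without control array 2 or 3 or without IL-4 array 1 or 3, with differences between -0.80 and -0.56 and adjusted p up to 0.152. Cd3e differed by -0.47 (SE 0.19, adjusted p = 0.267, 0.0231 with the block) with IL-7 and -0.40 (SE 0.19, adjusted p = 0.311, 0.0424 with the block) for IL-21, the latter 0.07 on the deposited scale.

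The remaining chains followed with IL-2. Cd247, which encodes the zeta chain, fell, with a difference of -0.81 (SE 0.18, adjusted p = 0.00547), and of 2 other probe sets above background 1 moved by 0.20. Cd8b1, the beta chain of the coreceptor, fell, with a difference of -1.13 (SE 0.25, adjusted p = 0.00517). Cd8a, the alpha chain, was at 11.39, 11.96 and 11.95 in media control, 10.82, 11.13 and 11.48 with IL-2, 11.20, 11.80 and 11.85 with IL-15, 11.77, 12.44 and 12.39 with IL-4, 11.24, 11.75 and 11.55 with IL-21 and 11.26, 11.90 and 11.82 with IL-7. The IL-2 and media control arrays of Cd8a overlapped, and within each replicate it was lower with IL-2 and higher with IL-4. Its differences were -0.62 (SE 0.26, adjusted p = 0.131, 1.7e-04 with the block) with IL-2 and 0.43 (SE 0.26, adjusted p = 0.384, 0.00437 with the block) with IL-4, so that both passed with the block alone. IL-2 and IL-4 themselves differed in Cd8a by -1.05 (SE 0.26, adjusted p = 0.0443).

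Among the kinases measured, which do not include Lck, Fyn and Txk fell with IL-2 and IL-4, and Zap70 fell with IL-2. Fyn, a SRC family kinase that phosphorylates the receptor's tyrosine motifs, was at 10.34, 10.46 and 10.59 in media control, 9.24, 9.38 and 9.43 with IL-2, 10.10, 10.34 and 9.99 with IL-15, 9.43, 9.61 and 9.59 with IL-4, 9.94, 10.03 and 10.25 with IL-21 and 9.72, 9.88 and 10.21 with IL-7. Every cytokine array of Fyn lay below the 3 media control arrays, and the IL-2 and IL-4 arrays were the 6 lowest. Fyn changed by -1.11 (SE 0.14, adjusted p = 8.4e-05) with IL-2 and -0.92 (SE 0.14, adjusted p = 6.7e-04) with IL-4, and with IL-7 and IL-21 it passed with the block alone (differences of -0.53 (SE 0.14, adjusted p = 0.0737, 0.00524 with the block) and -0.39 (SE 0.14, adjusted p = 0.127, 0.0184 with the block), the latter 0.11 on the deposited scale). Txk, a TEC family kinase that acts on phospholipase C gamma, was at 8.33, 9.01 and 8.78 in media control, 7.57, 7.69 and 7.55 with IL-2, 8.43, 9.08 and 8.97 with IL-15, 7.80, 7.66 and 7.36 with IL-4, 9.32, 9.26 and 8.76 with IL-21 and 8.84, 9.32 and 8.72 with IL-7. The 6 arrays of IL-2 and IL-4 were all below the other 12, which overlapped each other. Txk fell, with a difference of -1.10 (SE 0.22, adjusted p = 0.00265) with IL-2 and of -1.10 (SE 0.22, adjusted p = 0.00497) with IL-4, while the differences of 0.26 (SE 0.22) with IL-7, 0.41 (SE 0.22) with IL-21 and 0.12 (SE 0.22) with IL-15 did not pass.

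Zap70, the kinase that docks on the phosphorylated chains, was at 11.72, 11.71 and 11.43 in media control, 11.09, 11.08 and 10.66 with IL-2, 11.59, 11.70 and 11.04 with IL-15, 11.46, 11.60 and 11.18 with IL-4, 11.64, 11.72 and 11.34 with IL-21 and 11.47, 11.48 and 11.21 with IL-7. With IL-2 it was lower in each replicate and its arrays did not overlap those of media control, a change of -0.67 (SE 0.19, adjusted p = 0.0203). That call did not pass without control array 1 or 2 or IL-2 array 3, where the difference ranged from -0.77 to -0.53 over all such fits and adjusted p reached 0.0899. With the other 4 cytokines Zap70 differed by -0.23 to -0.06, with and without the block short of the threshold. Csk, which phosphorylates the inhibitory tail tyrosine of SRC kinases, differed by -0.45 (SE 0.21, adjusted p = 0.182, 2.9e-04 with the block) with IL-2 and -0.39 (SE 0.21, adjusted p = 0.37, 0.00214 with the block) with IL-21.

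Part of the scaffold downstream of ZAP70 fell with IL-2 as well. Of 7 adaptors and proximal effectors, 3 fell with IL-2 (4 fell and 1 rose with the block), 1 with IL-4 (3 with the block) and 1 with IL-21 (3 fell and 1 rose with the block), and none passed with IL-7 (1 fell with the block). Lat, the membrane scaffold, was at 12.17, 12.31 and 12.27 in media control, 11.84, 11.60 and 11.67 with IL-2, 12.09, 12.24 and 11.84 with IL-15, 11.97, 12.06 and 12.16 with IL-4, 12.07, 12.06 and 12.27 with IL-21 and 11.92, 11.97 and 12.24 with IL-7. The 3 IL-2 arrays were the lowest of the 18, with IL-2 replicate 1 level with IL-15 replicate 3 at 11.84, and the change was -0.54 (SE 0.13, adjusted p = 0.00748). Plcg1, which encodes phospholipase C gamma 1, fell, with a difference of -0.95 (SE 0.23, adjusted p = 0.00914), and Lcp2, which encodes SLP-76, of -0.41 (SE 0.13, adjusted p = 0.0335). Plcg1 with IL-4, IL-7 and IL-21 passed with the block alone, at -0.69 (SE 0.23, adjusted p = 0.0774, 2.5e-04 with the block), -0.60 (SE 0.23, adjusted p = 0.225, 0.0022 with the block) and -0.79 (SE 0.23, adjusted p = 0.0515, 9.1e-05 with the block). The Plcg1 call with IL-2 did not pass without control array 2 (adjusted p = 0.0519), and that of Lcp2 was lost without any 1 of the 3 media control arrays or IL-2 replicates 2 or 3 (adjusted p up to 0.173).

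Sh2d1a fell with IL-4 and IL-21. It encodes SAP, the small adaptor that couples SLAM family receptors to FYN, and was at 10.85, 10.92 and 10.65 in media control, 10.49, 10.05 and 11.74 with IL-2, 10.64, 10.86 and 10.37 with IL-15, 8.62, 8.32 and 9.31 with IL-4, 9.10, 9.55 and 9.01 with IL-21 and 10.18, 10.01 and 10.30 with IL-7. All 6 arrays of IL-4 and IL-21 were below the 12 others. Sh2d1a fell, with a difference of -2.06 (SE 0.33, adjusted p = 0.00105) with IL-4 and of -1.59 (SE 0.33, adjusted p = 0.00786) with IL-21, whereas with IL-2 the 3 within-replicate differences were -0.36, -0.88 and 1.09. The TRIzol replicate thus opposed both RNeasy replicates, and the difference with IL-2 was -0.05 (SE 0.33, adjusted p = 0.989). Of the other adaptors, Grap2, Vav1 and Themis passed with the block alone, upward for the GADS adaptor Grap2 with IL-2, at 0.44 (SE 0.19, adjusted p = 0.147, 0.0427 with the block). Vav1, an exchange factor for RAC, was lower with IL-2 at -0.31 (SE 0.27, adjusted p = 0.631, 0.0206 with the block) and higher for IL-21 at 0.34 (SE 0.27, adjusted p = 0.628, 0.021 with the block), and the thymocyte selection factor Themis lower with IL-4 at -0.56 (SE 0.24, adjusted p = 0.191, 0.00278 with the block).

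Cd5 and Cd6, scavenger receptor family proteins that sit with the receptor and dampen its signal, were lower with 4 of the cytokines. Cd5 was at 11.90, 11.99 and 11.98 in media control, 10.56, 10.38 and 10.40 with IL-2, 11.63, 11.79 and 11.20 with IL-15, 11.29, 11.36 and 11.36 with IL-4, 10.91, 10.97 and 11.07 with IL-21 and 11.17, 11.13 and 11.49 with IL-7. No cytokine array of Cd5 reached the lowest media control array, and the 3 IL-2 arrays were the lowest of the 18. Cd5 fell, with a difference of -1.51 (SE 0.14, adjusted p = 8.8e-06) with IL-2, -0.97 (SE 0.14, adjusted p = 4.5e-04) with IL-21, -0.62 (SE 0.14, adjusted p = 0.011) with IL-4 and -0.69 (SE 0.14, adjusted p = 0.0223) with IL-7. Cd6 was at 11.18, 11.24 and 11.42 in media control, 9.82, 9.66 and 10.21 with IL-2, 10.79, 11.10 and 10.71 with IL-15, 10.27, 10.26 and 10.24 with IL-4, 10.62, 10.74 and 10.58 with IL-21 and 10.39, 10.41 and 10.61 with IL-7. Its cytokine arrays were likewise all below those of media control. Cd6 fell, with a difference of -1.39 (SE 0.14, adjusted p = 1.8e-05) with IL-2, -0.63 (SE 0.14, adjusted p = 0.0121) with IL-21, -1.02 (SE 0.14, adjusted p = 3.5e-04) with IL-4 and -0.81 (SE 0.14, adjusted p = 0.0112) with IL-7. With IL-15 the 2 genes differed by -0.41 (SE 0.14) and -0.41 (SE 0.14), their arrays also below media control, with an adjusted p of 1 for each (0.413 and 0.413 with the block).

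Some of these calls rested on single arrays. The IL-7 call of Cd5 did not pass without control array 2 or 3 or IL-7 array 1 or 2 (adjusted p up to 0.131), and that of Cd6 without control array 3 or IL-7 array 1 or 2 (up to 0.0689). Cd6 with IL-21 did not pass without control array 3 or IL-21 array 1 (up to 0.0596).

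The costimulatory receptors went separate ways. Cd28, the main costimulatory receptor, fell, with a difference of -0.93 (SE 0.23, adjusted p = 0.0115) with IL-2, which did not pass without control array 2 (adjusted p = 0.0704). Cd2, an adhesion receptor for CD48 in the mouse, fell, with a difference of -0.95 (SE 0.20, adjusted p = 0.00654) with IL-4 and differed by 0.15 (SE 0.20) with IL-2. Icos, a costimulatory receptor that activated T cells acquire, was at 10.93, 11.02 and 11.36 in media control, 11.09, 11.39 and 12.03 with IL-2, 10.84, 10.85 and 11.30 with IL-15, 10.32, 10.28 and 10.79 with IL-4, 11.52, 11.88 and 11.62 with IL-21 and 10.80, 10.83 and 11.18 with IL-7. The 3 IL-4 arrays of Icos were below and the 3 IL-21 arrays above all of media control. Icos differed by -0.64 (SE 0.23, adjusted p = 0.0983, 0.0037 with the block) with IL-4, 0.57 (SE 0.23, adjusted p = 0.172, 0.00915 with the block) with IL-21 and 0.40 (SE 0.23, adjusted p = 0.318, 0.042 with the block) with IL-2, each passing with the block alone.

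Genes for several inhibitors of the pathway fell too. Of 9 phosphatases, ubiquitin ligases and diacylglycerol kinases, 4 fell with IL-2 (6 with the block), 3 with IL-4 (4) and 3 with IL-21 (4), none passed with IL-7 (4 fell with the block), and none rose in either fit. The 9 include Ptprc, which primes SRC kinases and is among the 6 that fell with IL-2 with the block. Dgka, a kinase that removes diacylglycerol and so limits RAS activation, had the largest fall of the members with IL-2. It was at 12.39, 12.95 and 12.47 in media control, 10.60, 10.76 and 10.76 with IL-2, 12.20, 12.79 and 11.92 with IL-15, 10.88, 11.01 and 11.19 with IL-4, 11.55, 12.11 and 11.62 with IL-21 and 11.74, 12.14 and 12.03 with IL-7. The 6 arrays of IL-2 and IL-4 were the lowest, those of IL-7 and IL-21 lay between them and media control, and IL-15 overlapped media control. Dgka fell, with a difference of -1.90 (SE 0.21, adjusted p = 3.6e-05) with IL-2, -1.58 (SE 0.21, adjusted p = 2.7e-04) with IL-4 and -0.84 (SE 0.21, adjusted p = 0.0258) with IL-21, and differed by -0.63 (SE 0.21, adjusted p = 0.165, 0.0122 with the block) with IL-7.

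Dgkz, the zeta isoform of the same enzyme, was at 12.58, 12.72 and 12.71 in media control, 11.76, 12.08 and 11.50 with IL-2, 12.53, 12.58 and 12.09 with IL-15, 11.92, 12.10 and 11.82 with IL-4, 11.83, 12.16 and 11.82 with IL-21 and 12.24, 12.37 and 12.27 with IL-7. All cytokine arrays were below the 3 media control arrays. It fell, with a difference of -0.89 (SE 0.16, adjusted p = 0.00131) with IL-2, -0.73 (SE 0.16, adjusted p = 0.00997) with IL-4 and -0.74 (SE 0.16, adjusted p = 0.0102) with IL-21, and its difference with IL-7, -0.38 (SE 0.16, adjusted p = 0.294, 0.0333 with the block), passed with the block alone (0.03 on the deposited scale). Without IL-21 replicate 1 the IL-21 calls of Dgkz and Dgka did not pass, nor did that of Dgka without control array 2 or IL-21 array 3 (adjusted p up to 0.0547 for Dgkz and 0.136 for Dgka).

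Cblb, the ubiquitin ligase that sets the threshold for activation without costimulation, was at 11.15, 11.47 and 11.45 in media control, 10.60, 10.51 and 10.37 with IL-2, 11.13, 11.45 and 10.58 with IL-15, 10.54, 10.57 and 10.55 with IL-4, 10.49, 10.75 and 10.46 with IL-21 and 10.87, 10.82 and 10.79 with IL-7. The arrays of the cytokines other than IL-15 were below all of media control, and IL-15 was split, with its replicate 3 near the IL-21 values and the others near media control. Cblb fell, with a difference of -0.87 (SE 0.17, adjusted p = 0.00243) with IL-2, -0.81 (SE 0.17, adjusted p = 0.0071) with IL-4 and -0.79 (SE 0.17, adjusted p = 0.00917) with IL-21, and differed by -0.53 (SE 0.17, adjusted p = 0.141, 0.0239 with the block) with IL-7. Ubash3a, a suppressor of receptor signalling also called STS-2, fell, with a difference of -0.64 (SE 0.18, adjusted p = 0.0209) with IL-2, and not without control array 2 or 3 or IL-2 array 2 (adjusted p up to 0.103). Ptpn22, a phosphatase of SRC kinases and ZAP70, differed by -1.003 (SE 0.38, adjusted p = 0.0927, 2.7e-05 with the block) with IL-2 and -0.87 (SE 0.38, adjusted p = 0.2, 2.0e-04 with the block) with IL-4, and was lower in every replicate. Ptprc, the CD45 phosphatase that primes SRC kinases, differed by -0.22 (SE 0.10, adjusted p = 0.205, 0.0234 with the block) with IL-2.

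In the diacylglycerol and NF-kappaB branch, Rasgrp1 rose with IL-4 and Malt1 rose with IL-2 and IL-21. Rasgrp1, the diacylglycerol-bound exchange factor that loads RAS, was at 10.44, 10.79 and 10.18 in media control, 10.42, 11.14 and 9.88 with IL-2, 10.38, 10.81 and 10.09 with IL-15, 11.69, 12.15 and 11.26 with IL-4, 9.29, 9.83 and 9.11 with IL-21 and 10.62, 11.21 and 10.46 with IL-7. The 3 IL-4 arrays were the highest and the 3 IL-21 arrays the lowest of all 18. Rasgrp1 rose by 1.23 (SE 0.32, adjusted p = 0.0255) with IL-4, and its difference with IL-21 was -1.06 (SE 0.32, adjusted p = 0.0646, 8.9e-06 with the block), down in all 3 replicates. The rise did not pass without control array 1 or 3 or IL-4 array 1 or 2, where adjusted p reached 0.118 and the difference stayed between 1.00 and 1.45. Its promoter window holds the motif TTCNNNGAA in capitals, as does that of Cd3d. A match describes the letters alone, and a part of it in the rise was not tested.
Rasgrp1 (chr2:117342878-117343127, minus strand): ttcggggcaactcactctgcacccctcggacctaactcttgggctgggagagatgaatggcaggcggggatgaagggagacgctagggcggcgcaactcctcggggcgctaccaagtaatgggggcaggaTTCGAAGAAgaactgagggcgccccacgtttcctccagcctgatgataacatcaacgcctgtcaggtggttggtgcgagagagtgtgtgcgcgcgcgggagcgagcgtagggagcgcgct

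Malt1, the paracaspase that joins BCL10 on the way to NF-kappaB, was at 9.06, 9.61 and 9.30 in media control, 10.07, 10.89 and 9.90 with IL-2, 9.38, 9.74 and 9.54 with IL-15, 8.91, 9.28 and 9.06 with IL-4, 10.36, 10.65 and 10.30 with IL-21 and 9.70, 10.01 and 9.39 with IL-7. The IL-2 and IL-21 arrays were all above those of media control, IL-4 and IL-15. Malt1 rose by 0.96 (SE 0.23, adjusted p = 0.00955) with IL-2 and 1.11 (SE 0.23, adjusted p = 0.00788) with IL-21, and its differences with the other 3 cytokines did not pass. The other Malt1 probe set above background moved by -0.04 with IL-2 and 0.73 with IL-21, so the rise with IL-2 was seen with 1 of 2 probe sets. Bcl10, its partner, was at 10.90, 11.07 and 11.07 in media control, 10.37, 10.37 and 10.10 with IL-2, 10.80, 10.87 and 10.56 with IL-15, 10.51, 10.50 and 10.24 with IL-4, 10.52, 10.57 and 10.48 with IL-21 and 10.51, 10.53 and 10.58 with IL-7. Every cytokine array of Bcl10 was below the lowest media control array. Bcl10 fell, with a difference of -0.73 (SE 0.12, adjusted p = 5.7e-04) with IL-2, -0.60 (SE 0.12, adjusted p = 0.00467) with IL-4 and -0.49 (SE 0.12, adjusted p = 0.0193) with IL-21 (0.01 on the deposited scale), and with IL-7 it differed by -0.48 (SE 0.12, adjusted p = 0.0598, 0.00515 with the block) (0.03 on that scale).

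Nfkbia, the inhibitor that holds NF-kappaB in the cytoplasm and is itself an NF-kappaB target, fell, with a difference of -1.01 (SE 0.32, adjusted p = 0.0407) with IL-2 and -1.19 (SE 0.32, adjusted p = 0.028) with IL-4. Both calls were open to single arrays, being lost without any 1 of the media control arrays or without replicate 2 or 3 of the cytokine, with adjusted p up to 0.189 and 0.135. The IL-21 call of Bcl10 did not pass without control array 2 or 3 or IL-21 array 1 or 3 (up to 0.0829). Prkcq, the protein kinase C theta that starts this branch, was at 11.90, 12.20 and 10.56 in media control and 11.21, 11.07 and 10.09 with IL-2, lowest in the TRIzol replicate of each, and its difference was -0.76 (SE 0.56, adjusted p = 0.52, 1.5e-04 with the block).

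In the calcium branch, Nfatc1 fell and Nfatc2 rose with IL-21. Nfatc1, a calcineurin-activated factor with an inducible promoter, was at 9.91, 9.94 and 9.93 in media control, 9.53, 9.50 and 9.33 with IL-2, 9.93, 9.84 and 9.67 with IL-15, 9.50, 9.29 and 9.36 with IL-4, 9.23, 9.41 and 9.06 with IL-21 and 9.88, 9.68 and 9.83 with IL-7. The arrays of IL-21, IL-4 and IL-2 were all below every array of media control, IL-7 and IL-15. Nfatc1 fell, with a difference of -0.47 (SE 0.12, adjusted p = 0.0114) with IL-2, -0.54 (SE 0.12, adjusted p = 0.00803) with IL-4 and -0.69 (SE 0.12, adjusted p = 0.00164) with IL-21. Of its 3 other probe sets above background, 1 moved the other way with IL-2 (0.0044) and with IL-4 (0.11). Nfatc2, the constitutive member of the family, rose with IL-21 by 0.63 (SE 0.13, adjusted p = 0.00825), where its other probe set above background moved by 0.04, and differed by 0.23 (SE 0.13) with IL-2. Stim1, the calcium sensor of the endoplasmic reticulum that opens ORAI1, fell with IL-2, with a difference of -0.58 (SE 0.16, adjusted p = 0.0171), which did not pass without control array 3 or IL-2 array 1 or 2 (adjusted p up to 0.0916).

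Among the early response factors, falls passed with IL-21 and IL-4. With IL-21 2 of 6 fell (5 with the block), with IL-4 2 (3), and none passed with IL-2 (2 fell with the block) or IL-7. Of the 12 early response genes listed outside the members, most did not pass with IL-21 or IL-4, and those that passed without the block rose. With IL-21 3 of them rose and none fell (6 and 1 with the block), beside 3.39% of all genes that rose. With IL-4 2 rose and none fell (4 and 2 with the block), beside 3.98%. Egr3, an EGR family factor induced by calcineurin and NFAT, was at 9.37, 9.18 and 8.98 in media control, 9.01, 8.35 and 8.28 with IL-2, 9.60, 9.46 and 9.20 with IL-15, 9.67, 8.27 and 9.08 with IL-4, 7.34, 7.08 and 5.96 with IL-21 and 9.59, 9.11 and 9.57 with IL-7. The 3 IL-21 arrays lay below all 15 others, which overlapped one another. Egr3 fell with IL-21, with a difference of -2.38 (SE 0.35, adjusted p = 5.3e-04), while its other probe set above background moved by -0.15. The mean of Egr3 with IL-21 was 6.79, under the background level, and 1 of the 3 arrays was under it, so the size of this fall and of the other differences from IL-21 below is not exact. Its differences were -0.63 (SE 0.35) with IL-2, 0.24 (SE 0.35) with IL-15, -0.17 (SE 0.35) with IL-4 and 0.25 (SE 0.35) with IL-7, none past the threshold. Egr2 differed by -0.87 (SE 0.25, adjusted p = 0.0507, 0.0215 with the block) with IL-21, and Egr1 by -0.66 (SE 0.29, adjusted p = 0.173, 0.0219 with the block) with IL-2.

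The 3 NR4A orphan receptors, whose transcripts follow receptor stimulation closely, were all lower in each replicate with IL-4, with IL-21 and with IL-7. With IL-7 none of them passed in either fit. Their promoter windows are shown since each holds 4 copies of TGACG, the core of the cyclic AMP response element, in capitals on either strand (CGTCA on the other).
Nr4a1 (chr15:101266596-101266845, plus strand): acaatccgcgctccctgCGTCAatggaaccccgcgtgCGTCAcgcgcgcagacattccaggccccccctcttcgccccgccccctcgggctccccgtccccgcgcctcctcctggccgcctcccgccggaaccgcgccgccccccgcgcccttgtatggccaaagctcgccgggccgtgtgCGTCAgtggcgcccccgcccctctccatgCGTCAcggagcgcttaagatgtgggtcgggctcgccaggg
Nr4a2 (chr2:57124004-57124253, minus strand): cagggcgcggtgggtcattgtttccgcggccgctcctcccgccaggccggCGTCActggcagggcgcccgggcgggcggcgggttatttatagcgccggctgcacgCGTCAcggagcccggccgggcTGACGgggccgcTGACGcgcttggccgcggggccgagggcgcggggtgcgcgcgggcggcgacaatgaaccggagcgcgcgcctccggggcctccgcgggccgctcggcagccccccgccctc
Nr4a3 (chr4:48045055-48045304, plus strand): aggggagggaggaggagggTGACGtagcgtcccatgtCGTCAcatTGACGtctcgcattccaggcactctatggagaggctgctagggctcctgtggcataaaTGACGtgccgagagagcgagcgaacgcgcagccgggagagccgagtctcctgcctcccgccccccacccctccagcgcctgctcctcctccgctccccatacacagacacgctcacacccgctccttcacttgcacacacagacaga
TGACG is in 17.8% of the 32851 windows, and by gene in 19.8% of all genes and 11 of the 37 members (29.7%), and 45 windows (0.137%) hold 4 copies or more.

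Nr4a3 was at 10.29, 9.70 and 10.27 in media control, 10.26, 9.46 and 10.44 with IL-2, 10.18, 9.41 and 9.63 with IL-15, 8.69, 7.48 and 8.43 with IL-4, 8.56, 7.85 and 7.95 with IL-21 and 10.05, 9.14 and 10.12 with IL-7. All 6 arrays of IL-4 and IL-21 were below the 12 others, and the IL-2 arrays overlapped those of media control. Nr4a3 fell, with a difference of -1.88 (SE 0.36, adjusted p = 0.00327) with IL-4 and -1.96 (SE 0.36, adjusted p = 0.00284) with IL-21, and differed by -0.03 (SE 0.36) with IL-2. Nr4a1 was at 9.09, 9.11 and 9.73 in media control, 9.16, 8.69 and 9.46 with IL-2, 9.12, 9.28 and 9.32 with IL-15, 8.69, 7.82 and 8.33 with IL-4, 8.69, 8.72 and 8.60 with IL-21 and 8.87, 8.54 and 9.40 with IL-7. The IL-4 arrays of Nr4a1 were below all media control arrays, as were the IL-21 arrays. Nr4a1 fell, with a difference of -1.03 (SE 0.26, adjusted p = 0.0183) with IL-4 and differed by -0.64 (SE 0.26, adjusted p = 0.182, 0.0338 with the block) with IL-21. The IL-4 call did not pass without control array 3 or IL-4 array 2 (adjusted p up to 0.0963). Nr4a2 differed by -1.02 (SE 0.38, adjusted p = 0.12, 6.0e-05 with the block) with IL-4, -0.68 (SE 0.38, adjusted p = 0.408, 0.00165 with the block) with IL-21 and -0.71 (SE 0.38, adjusted p = 0.291, 5.8e-04 with the block) with IL-2.

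**Figure D3:**
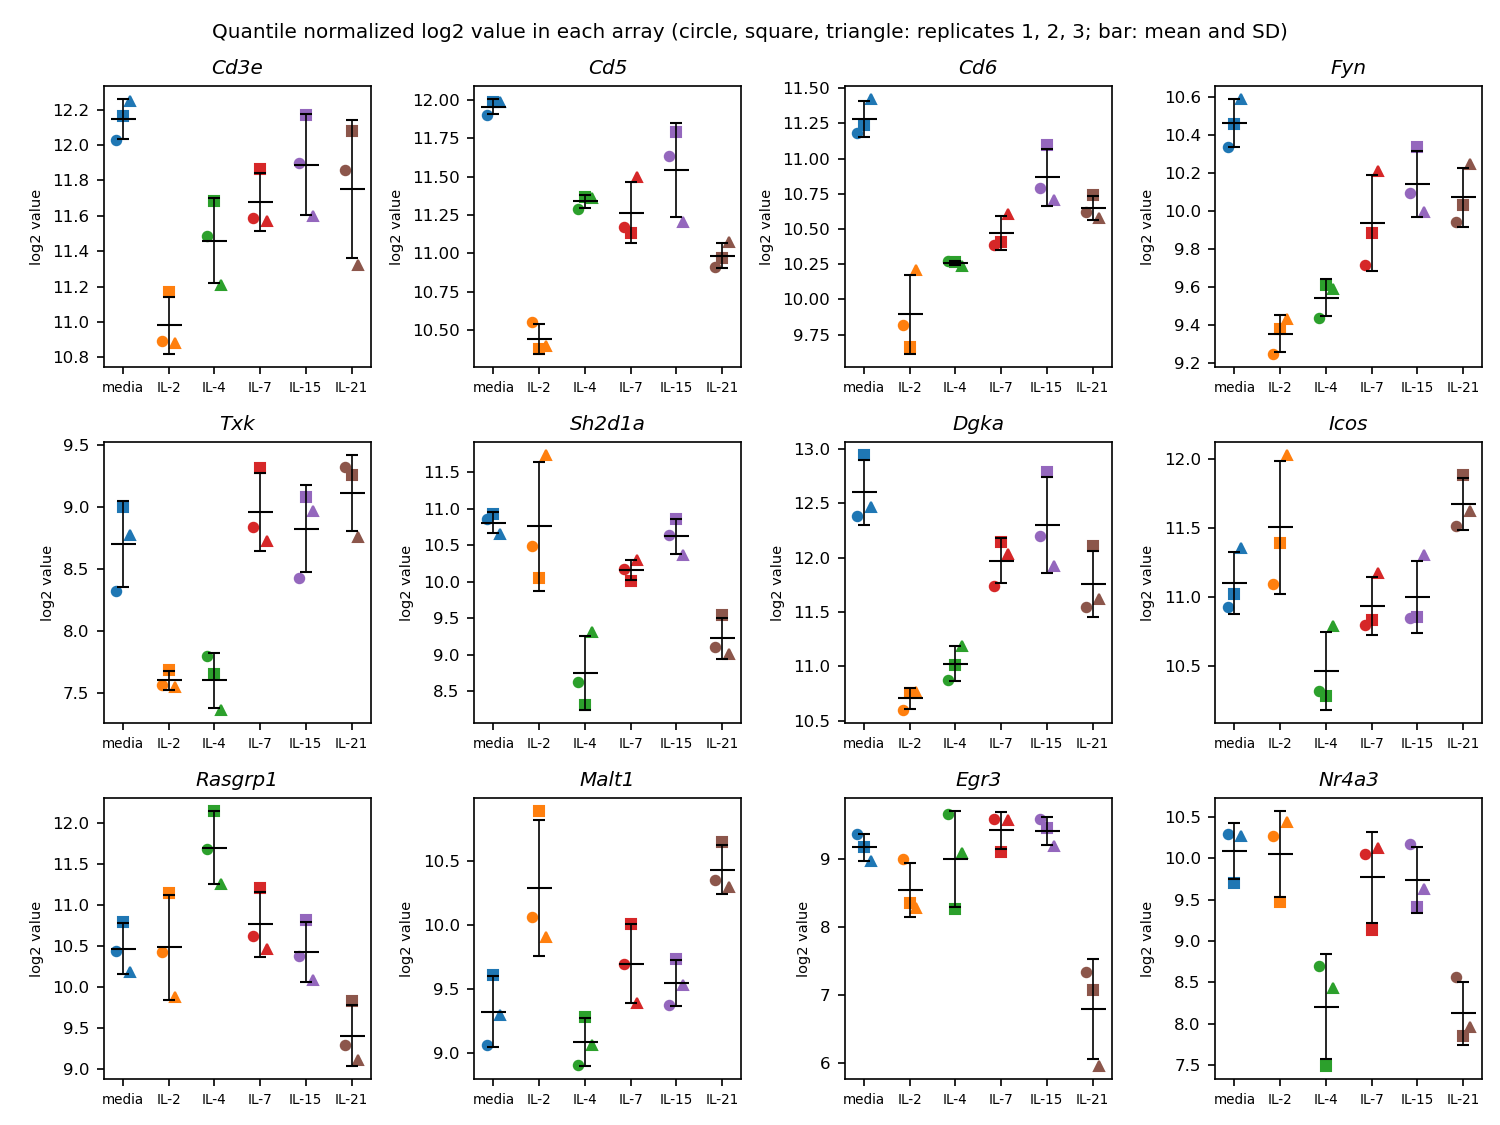
Quantile normalized log2 values of selected members in each of the 18 arrays, by group, with the mean and SD of 3 arrays as bars and a marker for each replicate number. The 6 arrays of IL-4 and IL-21 are the lowest for Nr4a3 and Sh2d1a, and those of IL-2 and IL-4 are the lowest for Dgka and Txk.

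Tests between cytokines showed where the responses parted. IL-2 and IL-4 differed in 7 members, 5 higher and 2 lower with IL-2 (0.962% and 1.1% of all genes), and in 20 with the block (10.6%). The largest were Sh2d1a at 2.01 (SE 0.33, adjusted p = 0.00341), Nr4a3 at 1.85 (SE 0.36, adjusted p = 0.0103) and Malt1 at 1.20 (SE 0.23, adjusted p = 0.011), all higher with IL-2. Cd2, Icos, Cd5 and Cd8a made up the rest, the last 2 lower with IL-2. The Nr4a3 difference did not pass without IL-2 array 1 or IL-4 array 2 (adjusted p up to 0.0643), nor that of Malt1 without IL-4 array 1 (0.0592), and without IL-4 array 2 the count was 4.

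IL-2 and IL-21 differed in 11 members, 3 higher and 8 lower with IL-2 (2.87% and 3.71% of all genes), and in 25 with the block (21.4%). Nr4a3 (1.93 (SE 0.36, adjusted p = 0.00362)), Egr3 (1.75 (SE 0.35, adjusted p = 0.00641)) and Sh2d1a (1.54 (SE 0.33, adjusted p = 0.0105)) were the 3 that were higher with IL-2, that of Egr3 against a mean under background. The 8 that were lower with IL-2 were Txk, Dgka, Cd3g, Cd3e, Cd6, Fyn, Cd3d and Cd5, with differences of -1.51 to -0.54. Of the 6 receptor and CD8 chain genes, the 3 for CD3 thus lay lower with IL-2, and all 6 with the block. The early response factors Nr4a3 and Egr3 lay lower with IL-21. Without IL-2 replicate 1 or IL-21 replicate 2 the count was 7.

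IL-4 and IL-21, with both of which Nr4a3 fell, differed in 7 members, 2 higher and 5 lower with IL-4 (1.46% and 2.35% of all genes), and in 18 with the block (11.7%). Rasgrp1 (2.29 (SE 0.32, adjusted p = 4.1e-04)) and Egr3 (2.21 (SE 0.35, adjusted p = 0.00112)) were higher with IL-4, the latter again against a mean under background. Txk (-1.51 (SE 0.22, adjusted p = 5.8e-04)), Malt1 (-1.35 (SE 0.23, adjusted p = 0.00233)), Icos, Cd2 and Fyn were higher with IL-21. Their difference in Nr4a3 was 0.08 (SE 0.36, adjusted p = 1).

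**Figure D4:**
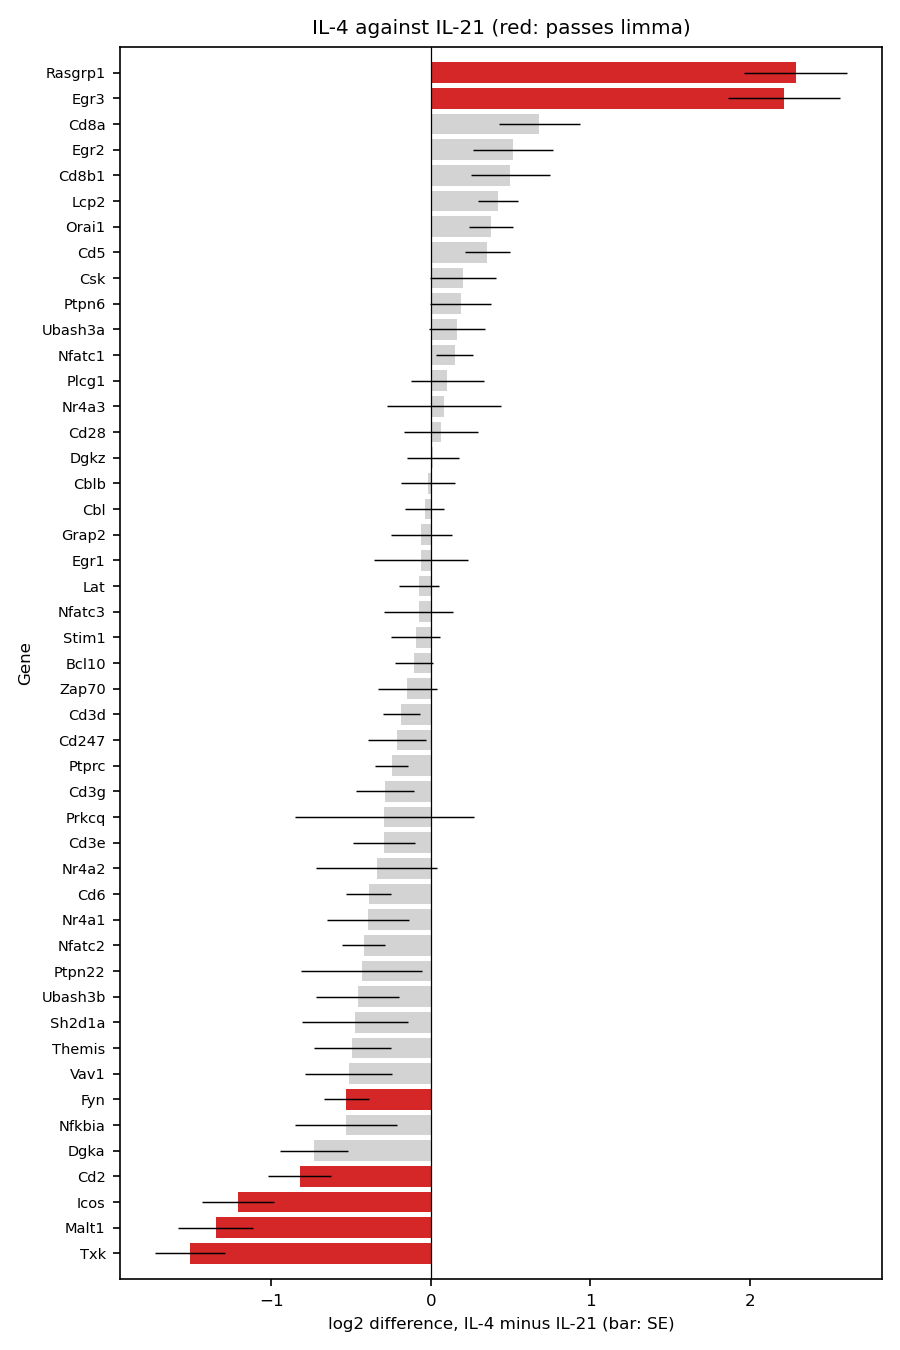
Log2 difference of IL-4 minus IL-21 for the 47 members, with its SE as a bar and red for those that passed in limma, 3 arrays a group. Rasgrp1 and Egr3 lie at 2.29 and 2.21, where the Egr3 mean with IL-21 is under background, and Txk, Malt1, Icos, Cd2 and Fyn lie between -1.51 and -0.53.

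IL-7 and IL-15 gave the fewest calls against media control. IL-2 was lower than IL-7 in 3 members and higher in none (0.896% and 0.528% of all genes), Txk (-1.36 (SE 0.22, adjusted p = 0.00615)), Dgka (-1.27 (SE 0.21, adjusted p = 0.00826)) and Cd5 (-0.82 (SE 0.14, adjusted p = 0.0084)), and the block gave 20 (11.1%). Each of the 3 had an array without which it did not pass, IL-7 array 2 for Txk (adjusted p = 0.0509), IL-2 replicate 1 or IL-7 replicate 2 for Dgka (up to 0.057) and IL-7 replicate 3 for Cd5 (0.0547), and the count was 5 without IL-2 array 3 and 1 without IL-7 array 2. IL-2 was lower than IL-15 in 13 members and higher in none (4.35% and 4.24% of all genes) and differed in 32 with the block (22.4%), and the count was 7 without IL-15 array 2. Dgka (-1.60 (SE 0.21, adjusted p = 3.4e-04)), Txk (-1.23 (SE 0.22, adjusted p = 0.00257)) and Cd5 (-1.10 (SE 0.14, adjusted p = 2.4e-04)) led, with Cd3d, Cd3e, Cd3g, Cd247, Cd8b1, Cd6, Cd28, Fyn, Dgkz and Bcl10 among them. IL-2 and IL-15 signal through the same beta and gamma receptor chains.

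With IL-15 itself, 6 members had arrays that did not overlap those of media control, as did 3.4% of all genes (0% of genes were called), namely Cd5, Cd6, Fyn, Dgkz, Bcl10 and Nfatc2. The largest differences were those of Cd6 and Cd5 given above, and their 95% intervals, before adjustment, were -0.72 to -0.11 and -0.71 to -0.11. IL-7 and IL-15 differed in none of the members by limma, and 0.011% of all genes were called (0.335% with the block). At an unadjusted p under 0.05 there were 2 members and 4.44% of all genes.

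The extraction kit ran with the replicate number, and TRIzol was used for 1 array a group. For the 22 members that fell with IL-2, which were called on these same arrays, the differences within replicates 1, 2 and 3 were all below 0, from -2.19 for Dgka in replicate 2 to -0.19 for Lcp2 in replicate 1, as a description.

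**Figure D5:**
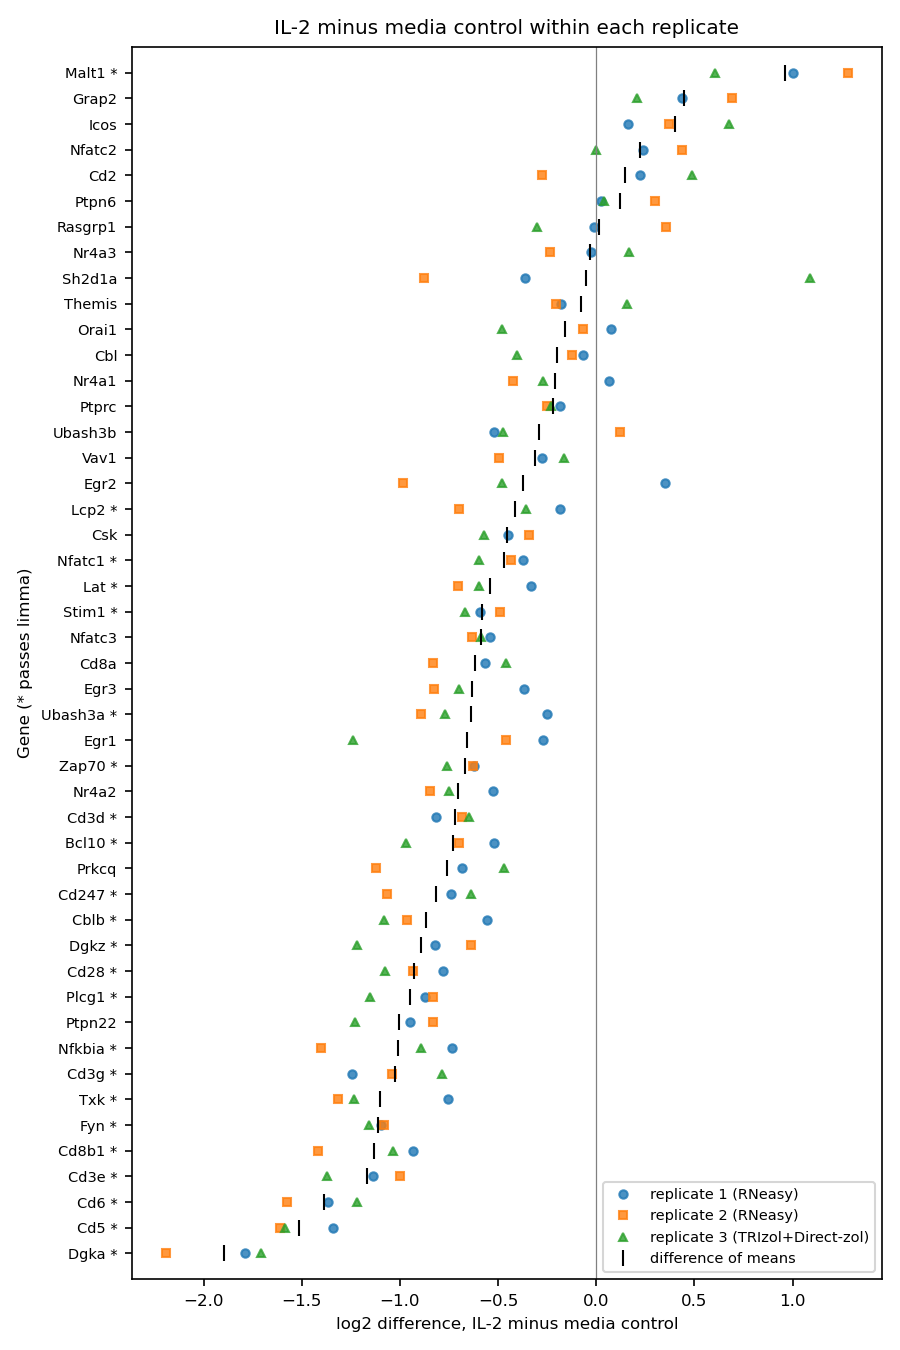
IL-2 minus media control within each replicate pair for the members (log2 difference, markers by replicate and kit, a tick for the difference of means, stars for members that passed in limma). The 22 members that fell are left of 0 in all 3 pairs, and Sh2d1a is the member whose TRIzol pair lies at 1.09 while its RNeasy pairs lie at -0.36 and -0.88.

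The wider pathway was read from 111 other listed genes, also chosen with earlier results of these data known, of which 97 were measured. With IL-2 23 of them fell and 8 rose (41 and 14 with the block), where 8% and 7.83% of all genes did so (15.1% and 15.5%). With IL-4 15 fell and 6 rose (29 and 14), beside 5.1% and 3.98%, and with IL-21 13 and 6 (28 and 15), beside 3.29% and 3.39%. With IL-7 5 fell (17 fell and 6 rose with the block), beside 0.747% that fell, and with IL-15 none passed. Their median change was -0.17 with IL-2 and -0.16 with IL-4. The falls with IL-2 were in the proximal kinases and adaptors (10 of 22), the NF-kappaB branch (6 of 15) and the calcium and NFAT branch (4 of 12). The negative regulators (2 of 11) and the RAS and MAP kinase branch (1 of 15) held the rest, with none in the PI3 kinase branch (10 genes). As many negative regulators rose as fell (2 of 11). The other rises were 4 of 12 early response genes, of which none fell, 1 calcium and NFAT gene and 1 PI3 kinase gene. Differences between branches were not tested. With IL-2, Cd96, a receptor for CD155 listed with the negative regulators, changed by -2.47 (SE 0.24, adjusted p = 1.2e-05) and the AP-1 factor Fosl2 by 2.00 (SE 0.32, adjusted p = 5.3e-04), the latter from a mean of 6.05, under the background level.

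With IL-4, Trat1, the transmembrane adaptor TRIM that binds the zeta chain, changed by 2.67 (SE 0.31, adjusted p = 6.9e-05) from a mean of 5.93, which is under background, so that the size of its rise is not exact. Nfkbiz, a nuclear inhibitor-like partner of NF-kappaB, changed by -1.78 (SE 0.19, adjusted p = 4.1e-05) with IL-4, to a mean of 6.80 under background. With IL-21, the early response gene Ier3 changed by 2.93 (SE 0.52, adjusted p = 0.00224) and Bcl3, another nuclear partner of NF-kappaB, by 2.27 (SE 0.33, adjusted p = 4.9e-04). With IL-7, Sla, an adaptor that promotes the loss of receptor chains from the surface, changed by -0.92 (SE 0.16, adjusted p = 0.0116), and Sh2d2a, a T cell adaptor, by -0.77 (SE 0.18, adjusted p = 0.0468). Neither fall was confined to IL-7. Sla also fell with IL-2 (-1.79, adjusted p = 7.7e-06), IL-21 (-1.25, adjusted p = 1.8e-04) and IL-4 (-0.96, adjusted p = 0.0014). Sh2d2a also fell with IL-21 (-1.11, adjusted p = 0.00137) and IL-2 (-0.70, adjusted p = 0.0142).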

How the data were processed

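RNA was measured on 18 arrays, 3 biological replicates in each of 6 groups. The authors deposited log2 values per probe set made by RMA in Affymetrix Expression Console 1.1 after image processing in AGCC 3.1.1. Columns were quantile normalized again here, because 3 arrays lay on a lower scale. Of 45101 probe sets, 34958 had 1 gene symbol in the platform annotation, and the brightest was taken for each of 18194 genes (932 had several symbols, and 9211 had no listed name). No detection calls were used, and the background level, 6.86, was set at percentile 95 of the means of 31 genes specific to other tissues. Members and lists were chosen with earlier results of these data known.

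Comparisons used limma 3.58.1 under R 4.3.3 (lmFit with group means, 12 residual degrees of freedom, eBayes, two-sided), and p-values were adjusted by the Benjamini-Hochberg method over all genes of a comparison. After gene and group means were removed, same-numbered arrays correlated in all 45 pairs (lowest 0.442, median 0.598), against at most 0.383 in 90 pairs with different numbers. The numbers were therefore taken to pair the samples, and the pairing comes from the data and the shared kits. Replicate 3 was not uniform, since 3 of its arrays lay on a lower scale, and a block by number does not remove that split. Which cultures or animals a number marks is not given in the sources used here. The code was tested on simulated data, and 3 arrays a group limit the precision.

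In each of 8 roles, up to 3 members with the largest F that passed were given with all array values (the largest where none passed), besides Cd3e, Cd8a, Zap70, Lat and Nr4a1. Alternatives were the deposited scale, median centring, the block, the mean of a gene's probe sets, removal of dim genes and leaving out arrays. Figures were drawn with Python 3.11.15 and matplotlib 3.10.9.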

Additional observations from a re-analysis of the deposited data

How the results depend on the processing

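On the deposited scale, with 3 arrays offset, no member passed in any comparison or in the F test (0 throughout). Over the 47 members the direction turned there in 26 with IL-7, 23 with IL-21, 19 with IL-4, 3 with IL-2 and 2 with IL-15. Of the differences called, or named and called with the block, these turned: Dgkz with IL-7 (0.0253), Bcl10 with IL-7 (0.0306) and IL-21 (0.0130), Cd3e with IL-21 (0.0699) and Fyn with IL-21 (0.11). With the replicate block, 42 members passed the F test, 3 rose and 31 fell with IL-2, 2 rose and 24 fell with IL-4, 1 rose and 16 fell with IL-7, 4 rose and 24 fell with IL-21, and between cytokines 20 differed for IL-2 against IL-4, 20 against IL-7, 32 against IL-15 and 25 against IL-21, and 18 for IL-4 against IL-21. All 68 calls of single members passed with the block too, and the 18 other named differences passed with it alone. With the mean of a gene's probe sets, 0 rose with IL-2, 4 fell with IL-7 and 1 rose with IL-21. After removal of dim genes, 4 fell with IL-7 and 7 differed between IL-2 and IL-7. With median centring, 1 rose with IL-21. With the RNeasy arrays alone as deposited, 3 rose with IL-2, 2 rose with IL-4, 5 fell with IL-7, and IL-2 differed in 6 members from IL-7, 21 from IL-15 and 17 from IL-21, and IL-4 in 12 from IL-21. Why these counts moved was not tested.

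Leaving out replicates, single arrays or a whole replicate number, gave 4 to 31 members for the F test, 0 to 3 rises and 10 to 24 falls with IL-2, 0 to 2 and 4 to 16 with IL-4, no rise and 0 to 5 falls with IL-7, 0 with IL-15, and 0 to 3 and 1 to 13 with IL-21. For pairs of cytokines it gave 1 to 7 (IL-2 against IL-4), 0 to 6 (IL-2 against IL-7), 1 to 20 (IL-2 against IL-15), 0 to 18 (IL-2 against IL-21) and 2 to 10 (IL-4 against IL-21). Of the 68 calls of single members, 46 passed in each fit that left out 1 array of the compared groups and 22 did not in at least 1, always with the same direction. Without the third replicate in all groups, 57 passed, without the first 19 and without the second 30. The arrays give no counts, and the number of arrays and the background level limit what can be told apart.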
